A study of Mus musculus with 9 samples.

Results

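The transcripts described here are 35 genes of mitochondrial fatty acid oxidation and of the surrounding PPAR program in newborn mouse skeletal muscle. They are 35 of the 55471 genes in the count table. The genes were listed by symbol, and all 35 were found and passed the filter on low counts. They had been selected on the read counts of these same 9 mice, in which many of them showed a high level in KO1, KO2, KO5 and WT1 and a low level in KO3, KO4, WT3 and WT4. That division is therefore given as a description, with no test, and nothing is supported by it.

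RNA was taken from the gastrocnemius, a calf muscle, at postnatal day 0 to 1 from 5 Shank3Δ11(-/-) mice (KO1 to KO5) and 4 Shank3(+/+) mice (WT1 to WT4), all labelled C57BL/6; the study's methods give C57BL/6JRj for the matings behind the KO mice. The KO mice carry the Shank3Δ11 allele of the postsynaptic scaffold gene Shank3 on both chromosomes, and no mouse received a treatment named in the labels. One library was made from each mouse. The sources used here do not say which mice were sampled on day 0 and which on day 1, nor their sex and feeding state. For the transcriptome the study compared KO1, KO3 and KO5 with the 4 WT mice and left out KO2 and KO4 for too few reads.

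Library totals ranged from 26444372 to 40471957 counts, with 28211941 in KO2 and 40471957 in KO4. Gene-level Shank3 ran from 25.8 to 35.1 counts per 1000000 counts of the library (CPM) in the KO mice and from 32.5 to 38.5 CPM in the WT mice, and a count over the whole gene does not check a deletion of part of it. Summed muscle markers lay between 48015 and 55947 CPM in all 9 mice. Adipocyte markers stood apart in KO5, with Adipoq at 78.7 CPM in KO5, 9.02 in KO1, 2.82 in KO2 and at most 1.71 in the other 6 mice. Schwann cell markers summed to 699.6 CPM in KO5 and to at most 418 CPM elsewhere, and epidermal markers to 80.9 CPM in WT4 and at most 46.0 CPM elsewhere. Globin and other erythroid transcripts summed to 5785 CPM in KO1 and to at most 2195 CPM elsewhere, and cartilage transcripts to 232 CPM in KO4 and at most 75.8 CPM elsewhere. Xist reached 619.2 CPM or more in WT3, WT4, KO3 and KO5 and stayed at 3.23 CPM or less elsewhere, and the mice of the latter kind expressed the Y-linked gene Ddx3y at 100.03 to 129 CPM.

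Long-chain fatty acids enter a muscle fibre through transporters such as CD36, are bound by FABP3, activated to acyl-CoA, and carried into the mitochondrion as acylcarnitines by the CPT1, carnitine-acylcarnitine translocase and CPT2 system. Inside, each turn of beta-oxidation shortens the chain through a dehydrogenation, a hydration, a second dehydrogenation and a thiolysis, and passes electrons through ETF to the respiratory chain. The nuclear receptors PPARα, PPARδ and PPARγ, which bind fatty acids and pair with RXR, are known activators of many of these genes, and muscle is known to increase fatty acid use after birth, when milk fat becomes the main fuel.

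The PPAR and RXR pair is known to bind a direct repeat of the element AGGTCA with 1 base between. In the 250 bases before the annotated start (RefSeq, GRCm38.p6; the sequence table held 29 of the 35 members), the exact repeat AGGTCANAGGTCA, read on both strands, was in no member and in 0.0407% of all genes. With any base at position 4 of each element (AGGNCANAGGNCA) it was again in no member and in 0.4% of all genes. A single AGGTCA, also counted within any repeat, was found in 7 of 29 members (24.1%) and in 15.8% of all genes. These 7 were Ucp3, Cpt1a, Plin5, Acadm, Acadvl, Cd36 and Echs1. The longer form TCAAGGTCA, which is known as a binding sequence of estrogen-related receptors, was in no member and in 0.422% of all genes. A match is a description of letters in this window. Below are the upstream sequences of 3 of the members with the widest separation between mice and of Pdk4, whose levels did not separate them, written 5′ to 3′ along the gene with AGGTCA or its complement TGACCT in capitals; bases that lie in an annotated exon were left out.
Ucp3 (chr7:100472741-100472989, plus strand, 249 bases): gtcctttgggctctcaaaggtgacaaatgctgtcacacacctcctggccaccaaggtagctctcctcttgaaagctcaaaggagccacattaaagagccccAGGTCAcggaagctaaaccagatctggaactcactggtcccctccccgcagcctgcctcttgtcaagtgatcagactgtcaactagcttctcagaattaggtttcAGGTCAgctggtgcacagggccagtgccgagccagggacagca
Cpt1a (chr19:3323051-3323284, plus strand, 234 bases): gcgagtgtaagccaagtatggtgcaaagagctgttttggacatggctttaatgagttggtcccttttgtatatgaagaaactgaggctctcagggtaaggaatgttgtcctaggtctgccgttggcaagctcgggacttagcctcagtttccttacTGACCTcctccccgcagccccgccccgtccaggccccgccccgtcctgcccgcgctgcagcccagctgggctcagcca
Plin5 (chr17:56117597-56117798, minus strand, 202 bases): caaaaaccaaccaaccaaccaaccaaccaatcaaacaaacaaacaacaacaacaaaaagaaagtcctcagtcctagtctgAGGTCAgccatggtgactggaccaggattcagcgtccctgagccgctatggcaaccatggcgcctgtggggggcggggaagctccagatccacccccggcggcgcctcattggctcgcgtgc
Pdk4 (chr6:5496310-5496528, minus strand, 219 bases): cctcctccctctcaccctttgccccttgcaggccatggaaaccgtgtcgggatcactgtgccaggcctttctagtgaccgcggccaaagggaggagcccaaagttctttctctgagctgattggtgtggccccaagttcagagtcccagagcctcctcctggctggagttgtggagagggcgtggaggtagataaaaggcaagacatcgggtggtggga
Ucp3 held 2 of these elements, starting 149 and 44 bases before its start. Cpt1a held 1, read on the other strand, starting 94 bases before, and Plin5 held 1, starting 170 bases before the more distal of its annotated starts and none in the window of the other start. The Pdk4 window held none. The windows of Acot1, Acot2, Mlycd and Slc25a20, whose levels also separated the mice, held none either. Echs1, which was lower in KO1, KO2, KO5 and WT1, held 1. The sequence table held 20 of the members whose levels were higher in KO1, KO2, KO5 and WT1, and 6 of these 20 had the element.

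A member was counted as following the mice when the lowest of KO1, KO2, KO5 and WT1 (the upper mice) was above the highest of KO3, KO4, WT3 and WT4 (the lower mice) on the log2 CPM scale, with WT2 in neither set. Of the 35 members, 24 were higher in all 4 upper mice, 1 was higher in all 4 lower mice and 10 overlapped. Among all 21735 genes tested, 6.28% had their upper mice all above the lower mice and 6.63% all below. The 24 were 3 of 5 genes of uptake and activation, 5 of 5 of the carnitine shuttle, 9 of 13 of beta-oxidation, 1 of 3 of electron transfer, and 6 of 9 of the fuel switch, uncoupling, thioesterase and lipid droplet genes. The members just inside the threshold were Acadm, with a gap of 0.13 on the log2 scale, and Ucp2, with 0.15. Just outside it were Hadh, with -0.01, and Etfb, with -0.06. Each set of mice holds KO and WT animals, so this division is not the genotype.

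**Figure D1:**
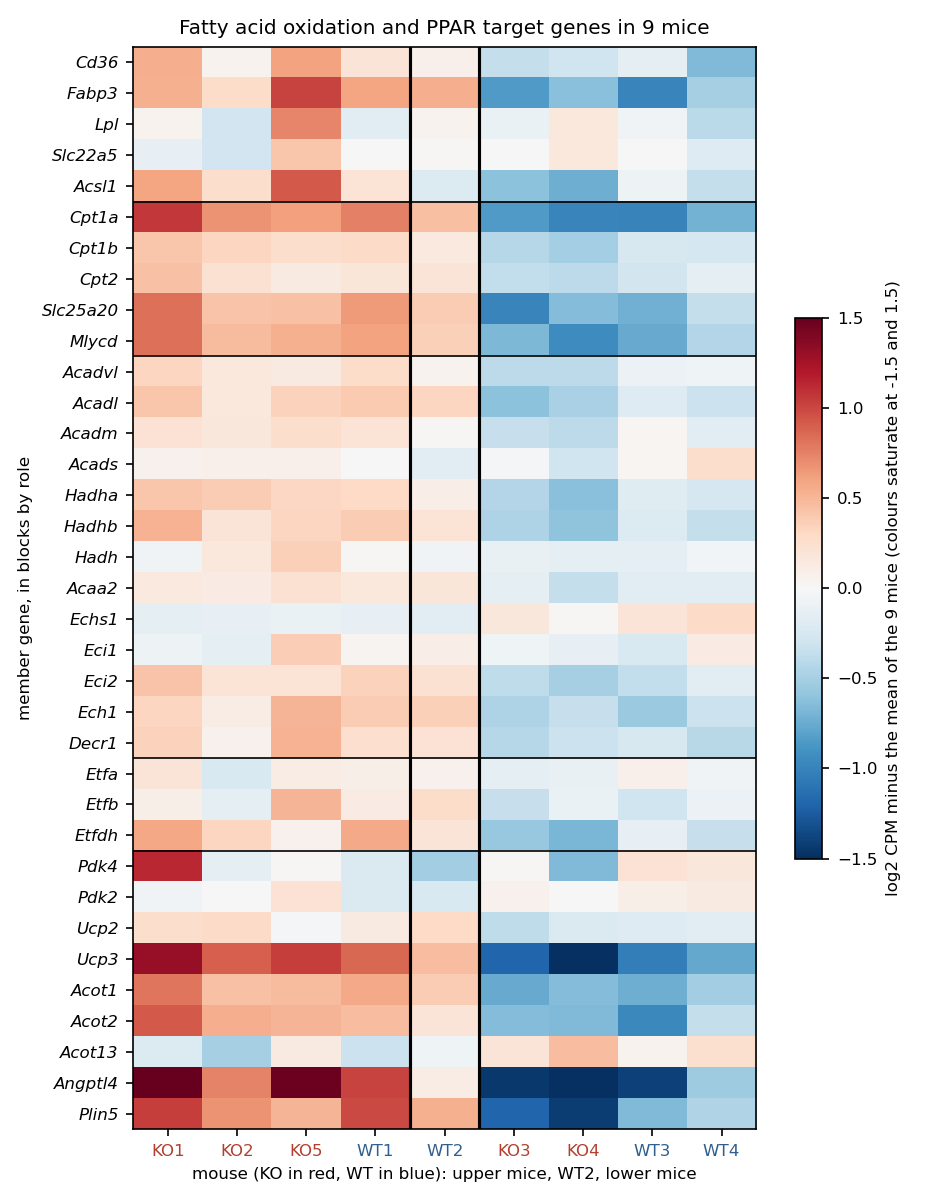
Log2 CPM of each member (rows, in blocks by role) minus its mean over the 9 mice, for the 4 upper mice, WT2 and the 4 lower mice (columns). Red is above and blue below the gene's own mean; the carnitine shuttle block is red in the 4 upper mice and blue in the 4 lower mice, whereas Lpl, Slc22a5, Acads, Eci1, Etfa and Pdk2 show no such division.

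Uptake and activation. Fabp3, the cytosolic fatty acid carrier of muscle, was at 152 CPM in KO1, 128 in KO2, 212 in KO5 and 159 in WT1, against 58.6 in KO3, 68.5 in KO4, 53.1 in WT3 and 74.9 in WT4. WT2, at 153 CPM, lay with the upper mice, and the lowest upper mouse was 1.71 times the highest lower mouse. Cd36, the membrane fatty acid transporter, was at 424 CPM in KO1, 301 in KO2, 440.0 in KO5 and 332 in WT1, and at 227 in KO3, 236 in KO4, 263 in WT3 and 183 in WT4. The sets did not overlap for Cd36 but came close, KO2 being 1.15 times WT3. Acsl1, the main long-chain acyl-CoA synthetase of muscle, was at 157 CPM in KO1, 125 in KO2, 197 in KO5 and 120 in WT1, and at 68.0 in KO3, 62.5 in KO4, 98.8 in WT3 and 81.0 in WT4. WT2 had 90.3 CPM of Acsl1 and lay within the lower mice.

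Lpl, the lipase that frees fatty acids from circulating triglyceride, overlapped between the sets. It was highest in KO5 at 835 CPM, the mouse with the highest adipocyte markers, and between 382 and 562 CPM in the other 8 mice. The carnitine transporter Slc22a5 overlapped too, with values from 8.05 CPM in KO2 to 13.1 CPM in KO5. KO5 was the highest mouse for all 5 genes of this group, and the part of adipocyte RNA in these levels was not tested.

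Carnitine shuttle. All 5 genes separated the mice. Cpt1a, which makes acylcarnitine at the outer membrane and is the isoform known from liver, was at 77.7 CPM in KO1, 59.6 in KO2, 57.1 in KO5 and 62.9 in WT1, against 20.6 in KO3, 18.8 in KO4, 18.6 in WT3 and 22.8 in WT4. WT2 was at 51.1 CPM, between the sets, and the lowest upper mouse was 2.50 times the highest lower mouse. Cpt1b, the muscle isoform, ran from 89.8 to 99.8 CPM in the upper mice and from 52.5 to 63.1 CPM in the lower mice, with WT2 at 83.0 CPM. The separation of Cpt1b was smaller, the lowest upper mouse being 1.42 times the highest lower mouse.

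Per kilobase of merged exons, Cpt1a stood at 0.280 to 0.343 of Cpt1b in the upper mice, 0.272 in WT2, and 0.130 to 0.164 in the lower mice. Cpt1b remained the more abundant isoform per length in each of the 9 mice. Its level is uncertain, because 81.4% of its exon bases are also annotated to the read-through gene Gm44502, and the sources used here do not say how reads shared by genes were counted.

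Mlycd, malonyl-CoA decarboxylase, which removes the inhibitor of CPT1, was at 85.4 CPM in KO1, 66.6 in KO2, 69.6 in KO5 and 73.1 in WT1, against 30.2 in KO3, 24.8 in KO4, 28.4 in WT3 and 35.5 in WT4. Slc25a20, the carnitine-acylcarnitine translocase, was at 82.4 CPM in KO1, 62.8 in KO2, 63.2 in KO5 and 72.4 in WT1, against 23.5 in KO3, 29.6 in KO4, 28.4 in WT3 and 36.5 in WT4. For both genes WT2 fell between the sets, at 61.6 CPM for Mlycd and 60.9 CPM for Slc25a20. Cpt2, which re-forms acyl-CoA on the matrix side, separated less, from 34.4 to 42.7 CPM in the upper mice and from 23.9 to 28.6 CPM in the lower mice.

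**Figure D2:**
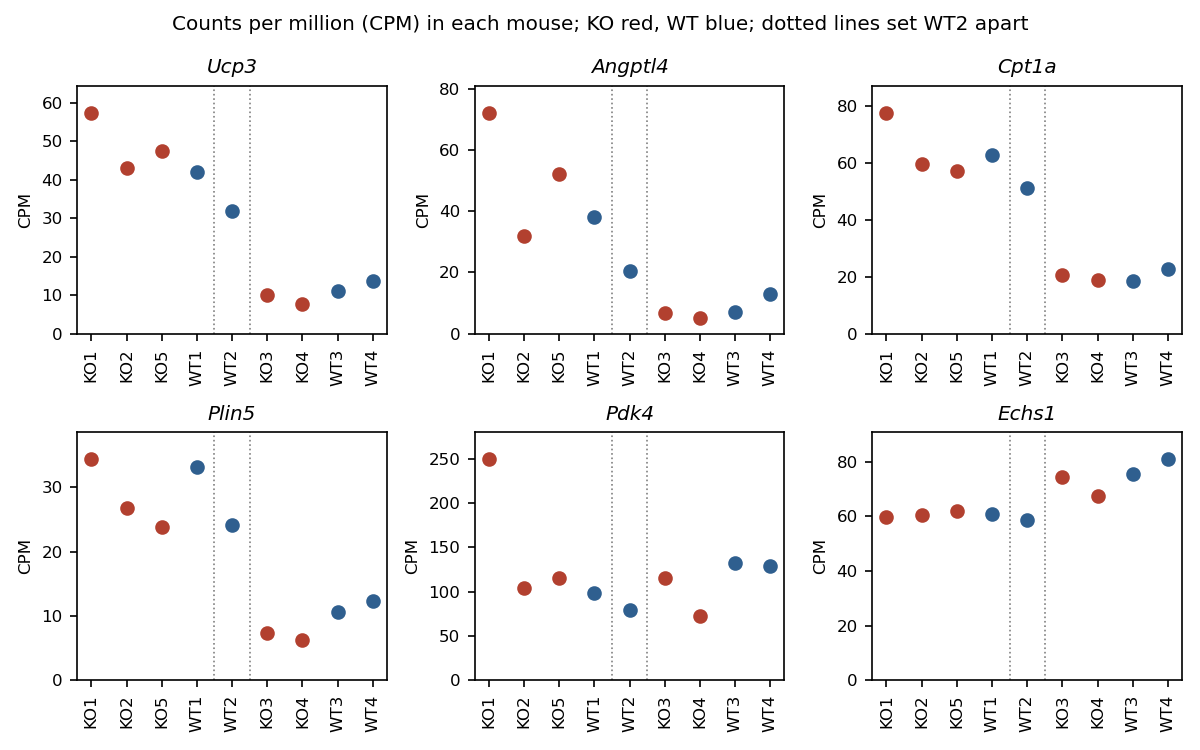
CPM (vertical axes, each starting at 0) of Ucp3, Angptl4, Cpt1a, Plin5, Pdk4 and Echs1 in each mouse (KO red, WT blue), with WT2 between the dotted lines. In Ucp3, Angptl4, Cpt1a and Plin5 the 4 mice at left lie above the 4 at right; Pdk4 stands out in KO1 alone at 249.5 CPM, and Echs1 runs the other way.

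Beta-oxidation. Of the dehydrogenases of the first step, Acadl, Acadvl and Acadm separated the mice and Acads did not. Acadl, the long-chain acyl-CoA dehydrogenase, was at 558 CPM in KO1, 466 in KO2, 534 in KO5 and 551 in WT1, against 272 in KO3, 298 in KO4, 367 in WT3 and 335 in WT4. Acadvl, for very long chains, ran from 120 to 137 CPM in the upper mice and from 83.3 to 105 CPM in the lower mice, and Acadm, for medium chains, from 184 to 197 and from 125 to 168 CPM. Acads, for short chains, overlapped, with 58.7 to 62.2 CPM in the upper mice and 47.9 to 70.7 CPM in the lower mice. The separations of Acadm and Acadvl were narrow, with gaps of 0.13 and 0.19 on the log2 scale, and the difference of Acads from the other 3 dehydrogenases was not tested. Of the exon bases of Acadvl, 42.9% overlap Dvl2 on the opposite strand, and the sources used here do not say whether the counting used strand.

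Both subunits of the mitochondrial trifunctional protein, which carries out the later steps on long chains, separated the mice. Hadha was at 347 CPM in KO1, 341 in KO2, 322 in KO5 and 321 in WT1, against 192 in KO3, 169 in KO4, 230 in WT3 and 219 in WT4. Hadhb ran from 98.9 to 125 CPM in the upper mice and from 57.2 to 75.5 CPM in the lower mice. Of the matrix enzymes Hadh and Acaa2, the first overlapped between the sets and the second separated the mice. Hadh, the 3-hydroxyacyl-CoA dehydrogenase, ran from 138 to 183 CPM in the upper mice and from 130.0 to 139 CPM in the lower mice, so that KO1 lay just under WT4. The thiolase Acaa2 ran from 257 to 275 CPM and from 184 to 213 CPM.

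Echs1, the short-chain enoyl-CoA hydratase, was the 1 member that ran the other way. It was at 59.7 CPM in KO1, 60.7 in KO2, 61.9 in KO5 and 60.9 in WT1, against 74.4 in KO3, 67.3 in KO4, 75.5 in WT3 and 81.1 in WT4. Its lowest lower mouse was 1.09 times its highest upper mouse, and WT2, at 58.8 CPM, was the lowest of all 9 mice.

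The auxiliary enzymes that handle double bonds were Eci1, Eci2, Ech1 and Decr1. Eci2 ran from 93.2 to 109 CPM in the upper mice and from 57.4 to 72.7 CPM in the lower mice, Ech1 from 116 to 152 and from 72.6 to 85.5 CPM, and Decr1 from 66.8 to 92.0 and from 47.5 to 54.2 CPM. Eci1 overlapped, at 39.6 to 56.6 CPM in the upper mice and 37.3 to 47.4 CPM in the lower mice. For Eci2, Ech1 and Decr1, WT2 lay within the upper mice.

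Electron transfer. Etfdh, the membrane enzyme that hands electrons from ETF to ubiquinone, was at 145 CPM in KO1, 121 in KO2, 101 in KO5 and 144 in WT1, against 65.6 in KO3, 60.0 in KO4, 88.6 in WT3 and 76.1 in WT4. The subunits of ETF itself overlapped. Etfa ran from 120 to 159 CPM in the upper mice and from 126 to 147 CPM in the lower mice, and Etfb from 99.6 to 157 and from 87.2 to 104 CPM. Of the exon bases of Etfb, 53.0% are also annotated to Gm45233 on the same strand.

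Uncoupling, thioesterases, lipid droplet and fuel switch. The widest separation of any member was that of Ucp3, the mitochondrial carrier of muscle known to be induced by fatty acids. It was at 57.5 CPM in KO1, 42.9 in KO2, 47.4 in KO5 and 41.9 in WT1, against 10.1 in KO3, 7.78 in KO4, 11.2 in WT3 and 13.6 in WT4. WT2, at 31.8 CPM, lay between, and WT1 was 3.08 times WT4. Its neighbour on chromosome 7, Ucp2, separated the mice weakly, with 124 to 153 CPM in the upper mice and 96.2 to 112 CPM in the lower mice. Per kilobase of exon, Ucp3 was 0.627 to 0.853 of Ucp2 in the upper mice and 0.161 to 0.272 in the lower mice.

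Angptl4, a secreted inhibitor of lipoprotein lipase, had the widest range of any member, its highest mouse being 14.3 times its lowest. It was at 72.3 CPM in KO1, 31.8 in KO2, 52.3 in KO5 and 38.1 in WT1, against 6.86 in KO3, 5.05 in KO4, 7.14 in WT3 and 13.0 in WT4. WT2 was between the sets at 20.5 CPM. Plin5, a coat protein that ties lipid droplets to mitochondria, was at 34.4 CPM in KO1, 26.7 in KO2, 23.8 in KO5 and 33.2 in WT1, against 7.34 in KO3, 6.18 in KO4, 10.6 in WT3 and 12.2 in WT4. KO5, whose adipocyte markers were highest, was the lowest of the upper mice for Plin5.

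The acyl-CoA thioesterases Acot1, of the cytosol, and Acot2, of the mitochondrion, both separated the mice. Acot1 ran from 19.2 to 24.9 CPM in the upper mice and from 8.41 to 9.86 CPM in the lower mice, and Acot2 from 28.3 to 38.7 and from 10.5 to 16.0 CPM. They are adjacent and nearly identical genes on chromosome 12, so reads may be split between them. Acot13, another thioesterase, overlapped, at 17.0 to 26.4 CPM in the upper mice and 24.8 to 33.0 CPM in the lower mice.

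Pdk4, the pyruvate dehydrogenase kinase that is widely used as a PPAR and fasting marker, did not follow the other members. It was at 249.5 CPM in KO1, 103 in KO2, 116 in KO5 and 98.5 in WT1, and at 115 in KO3, 72.0 in KO4, 133 in WT3 and 129 in WT4. KO1 stood alone and the remaining 8 mice overlapped. Pdk2, another pyruvate dehydrogenase kinase, overlapped as well, with 121 to 163 CPM in the upper mice and 140.4 to 154 CPM in the lower mice.

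WT2 had been placed in neither set. Among the 24 members higher in the upper mice it was above all 4 lower mice for 22 and at or below the highest lower mouse for 2, Acsl1 and Acadm. It lay below all 4 upper mice for 12 members. KO1 was the highest of the 9 mice for 16 of the 24 members and KO5 for 7, and KO4 was the lowest for 14 and KO3 for 5.

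The sex-linked transcripts did not divide the KO mice as the members did, since KO5 had high Xist and was an upper mouse and KO4 expressed the Y-linked genes and was a lower mouse. Among the WT mice they did, since WT1 and WT2 expressed Y-linked genes and WT3 and WT4 had high Xist. Within the WT mice sex-linked expression and the level of the members cannot be told apart. Of the 8 macrophage markers 2 (Csf1r and Lyz2) and of the 7 erythroid markers 1 were higher in all upper mice, beside 6.28% of all genes. None of the 6 adipocyte, 8 endothelial, 10 muscle, 7 fibroblast, 6 Schwann cell, 6 epidermal and 5 cartilage markers tested were. Of the 6 epidermal markers 2 were lower in all upper mice, beside 6.63% of all genes. Their part in the members' levels was not tested, and a lower level per cell cannot be told apart from fewer fibres of a type in bulk RNA.

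Genes around the pathway were read from further lists. Of 24 regulators none were higher in all upper mice and 3 (12.5%) were lower, beside 6.63% of all genes, and 21 overlapped. Ppara itself was at 3.76 CPM in KO1, 4.08 in KO2, 1.03 in KO5 and 4.13 in WT1, against 8.06 in KO3, 5.05 in KO4, 14.7 in WT3 and 11.2 in WT4. Klf15, a transcription factor of fasting metabolism, ran from 4.07 to 7.11 CPM in the upper mice and from 13.4 to 20.2 CPM in the lower mice, and Foxo3 from 45.4 to 63.2 and from 73.4 to 85.7 CPM.

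Of 53 other genes of lipid and fuel handling, 11 (20.8%) were higher and 12 (22.6%) lower in all upper mice, beside 6.28% and 6.63% of all genes. Among the 11 were Crat, Acox3, Hsd17b4, Acad10, Acot4, Pnpla2, Lipe, Acacb and Slc25a42. Slc25a42, a mitochondrial coenzyme A carrier, ran from 13.7 to 21.1 CPM in the upper mice and from 6.34 to 8.98 CPM in the lower mice. Pnpla2, the lipase that starts triglyceride breakdown in lipid droplets, was at 96.4 CPM in KO1, 48.5 in KO2, 105 in KO5 and 68.4 in WT1, against 33.9 in KO3, 42.9 in KO4, 32.3 in WT3 and 43.4 in WT4. The peroxisomal oxidation genes Acox3 and Hsd17b4 were in this set, and their separations were narrow (Acox3 at 14.2 to 17.3 and 12.8 to 14.1 CPM).

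The 12 that were lower in the upper mice were Oxct1, Bdh1, Ehhadh, Acaa1a, Plin3, Fabp5, Acsl5, Acot11, Hsd17b10, Dgat2, Pdk1 and Acaca. Oxct1, the enzyme that lets muscle use ketone bodies, ran from 113 to 136 CPM in the upper mice and from 238 to 285 CPM in the lower mice. Pdk1, a pyruvate dehydrogenase kinase known to respond to hypoxia, ran from 63.4 to 80.8 and from 113 to 153 CPM. The peroxisomal genes Ehhadh and Acaa1a, both known PPARα targets, were also in this set, at 4.45 to 5.16 and 6.80 to 8.56 CPM for Ehhadh.

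The lists of the respiratory chain, the mitochondrial genome and the TCA cycle did not divide the mice in this way. None of 30 nuclear respiratory chain genes and none of 13 mitochondrial transcripts separated the sets, and of 20 TCA cycle genes 1 (Sdhd) was lower in the upper mice. Of 17 glycolysis genes none were higher and 9 were lower in all upper mice, beside the 6.63% of all genes. Slc2a1, the glucose transporter GLUT1, ran from 6.38 to 8.66 CPM in the upper mice and from 17.7 to 23.6 CPM in the lower mice, and Hk2, hexokinase 2, from 42.8 to 72.7 and from 100.2 to 127 CPM. Among 16 genes of glucocorticoid response and atrophy 7 were lower in the upper mice, such as Fkbp5 with 18.2 to 34.2 and 48.8 to 70.5 CPM, and among 9 slow-fibre genes 4 were lower (Myh7, Myl3, Tnnt1 and Tnni1). None of 10 fast-fibre genes separated the sets.

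**Figure D3:**
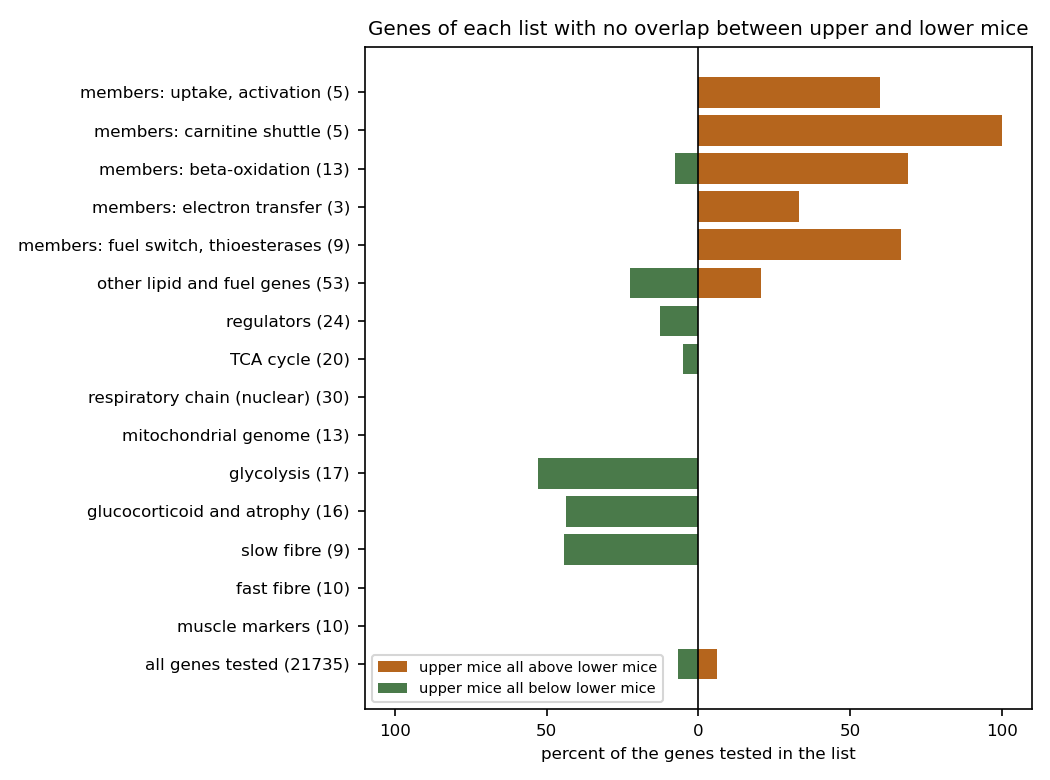
Percent of the tested genes of each list (number of genes in brackets) whose 4 upper mice all lie above (right) or all below (left) the 4 lower mice. The members reach 100% in the carnitine shuttle; the glycolysis list lies to the left with 9 of 17 genes, and all genes tested show 6.28% to the right and 6.63% to the left.

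Ranked by the gap between the lowest upper and the highest lower mouse among 13236 genes with a mean of 5 CPM or more, Ucp3 was at rank 3, Cpt1a at 4, Angptl4 at 5, Plin5 at 6, Acot1 at 7 and Mlycd at 10. Rank 1 was Fbp2, the muscle fructose bisphosphatase, at 89.2 CPM in KO1, 72.0 in KO2, 142.6 in KO5 and 79.4 in WT1, against 11.6 in KO3, 10.2 in KO4, 12.8 in WT3 and 17.2 in WT4. Other non-members of wide gap were Plbd1, Lgals4, Atcay and its antisense transcript Atcayos, Gm29170, Ptpre, Hsdl2 and Gpam, the last being the first enzyme of triglyceride synthesis. Atcay and Atcayos may share reads. In the opposite direction they were Gm13777, Gipr, Mchr1, Ndufa4l2, Scd2, Pfkl, Slc2a1, Slc18a1, Scd1 and Klf15. Scd1 and Scd2, the stearoyl-CoA desaturases, ran from 15.8 to 17.9 and from 139 to 154 CPM in the upper mice, and from 34.7 to 40.5 and from 357 to 531 CPM in the lower mice.

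KO and WT mice were then compared within each set of mice, by position and without a test, since the sets came from the measured values. Among the lower mice, KO3 and KO4 were both below WT3 and WT4 for 19 of the 35 members, beside 17.8% of all genes, and both above for 1 (Slc22a5), beside 19.9% of all genes. The 19 included Ucp3, Plin5, Angptl4, Cpt1b, Cpt2, Acadvl, Acadl, Acadm, Hadha, Hadhb and Etfdh. Hadha, for example, was at 192 and 169 CPM in KO3 and KO4 against 230 and 219 CPM in WT3 and WT4. The other 15 members were mixed, as was Cpt1a. With 2 mice of each genotype the smallest p an exact 2-sided permutation test can give is 0.333, so that this order of KO and WT mice could not have passed a threshold of 0.05. The same mice also parted in other lists, KO3 and KO4 being both above WT3 and WT4 for 12 of 13 mitochondrial genome transcripts and 5 of 8 endothelial markers, and both below for 10 of 20 TCA cycle genes. Mitochondrial genome transcripts took 5.42% and 7.88% of the counts in KO3 and KO4 against 4.36% and 3.81% in WT3 and WT4. KO4 was also the mouse with the highest cartilage markers, and the part of these differences in the members' values was not tested.

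Among the upper mice WT1 was the only WT animal. It was above KO1, KO2 and KO5 for 0 of the 35 members, beside 17.8% of all genes, below all 3 for 7, beside 17.6% of all genes, and within their range for 28. The 7 were Ucp3, Acot2, Hadha, Acsl1, Pdk4, Pdk2 and Acads. For Ucp3, WT1 at 41.9 CPM lay just below KO2 at 42.9 CPM.

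The comparison of genotypes asks whether these transcripts differ with the Shank3Δ11(-/-) genotype in newborn muscle. With the study's 7 mice (3 KO and 4 WT, without KO2 and KO4), edgeR's quasi-likelihood test called none of the 35 members at p below 0.05 with FDR below 25%, beside 0% of all 21809 genes tested. At an unadjusted p below 0.05 the count was 0 of 35, beside 2.08% of all genes, and the same count was 2 with DESeq2 and 0 with limma-voom. The fold changes were above 0 for 30 members and below 0 for 5, with a median log2 fold change of 0.12, beside 10414 of 21809 genes above 0 and a median of -0.01 over all genes. Without KO1, 18 members had a fold change above 0, and without KO3 7 members had an unadjusted edgeR p below 0.05, beside 794 of 22244 genes. Of these 3 KO mice, 2 were upper mice, whereas of the 4 WT mice 1 was. WT2, in neither set, was above all 4 lower mice for 22 of the 24 members higher in the upper mice. The part of this mix in the fold changes was not tested. With all 9 mice, edgeR called 0 members, beside 0% of all 21735 genes, and 0 had an unadjusted p below 0.05, beside 2.03% of all genes; the fold changes were above 0 for 24 members (14 without KO1 and 14 without WT3), with a median log2 fold change of 0.06.

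**Figure D4:**
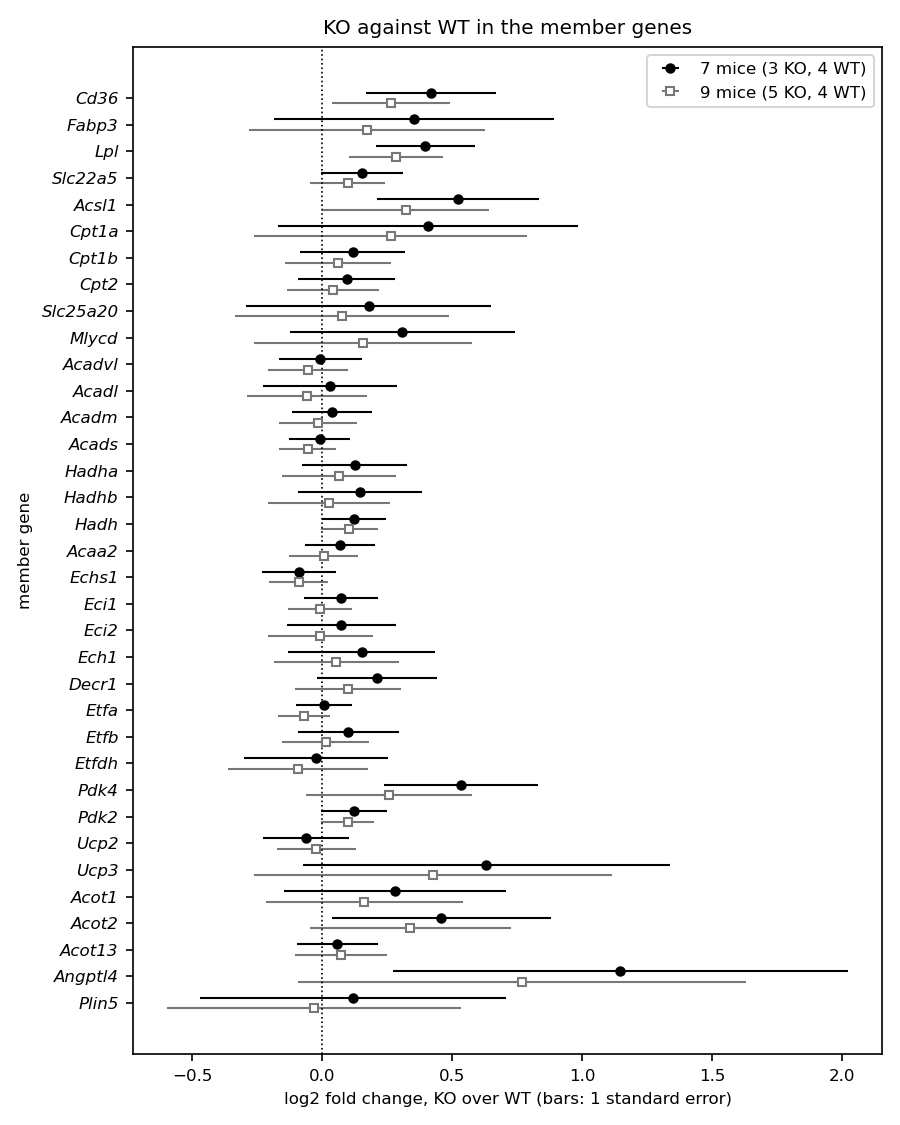
Log2 fold change of KO over WT (horizontal axis) of each member, with 1 standard error, in 7 mice (filled circles) and in all 9 mice (open squares). Most estimates lie to the right of 0 in 7 mice with a median of 0.12, and that median is 0.06 in 9 mice.

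The 5 members of smallest p in the 7 mice were Lpl, Pdk4, Cd36, Acsl1 and Angptl4. Lpl was at 610 ± 196 CPM (SD, n = 3 KO) and 461 ± 60.1 CPM (SD, n = 4 WT), a log2 fold change of 0.40 ± 0.19 (SE) with a p of 0.0639 in edgeR's test, and 0.171 in the exact 2-sided permutation test. Pdk4 was at 160 ± 77.3 and 110 ± 25.5 CPM, a log2 fold change of 0.53 ± 0.30. Angptl4 was at 43.8 ± 33.5 and 19.7 ± 13.4 CPM, a log2 fold change of 1.15 ± 0.88 with an edgeR p of 0.24; it was 0.58 without KO1. All 5 had an adjusted p of 0.9996 in edgeR's test. For Lpl the estimate rested on KO5 and was 0.10 without it, since KO1 and KO3 were at 524 and 471 CPM and the WT mice between 382 and 523 CPM. For Pdk4 it rested on KO1 and was 0.07 without it, as KO3 and KO5 lay at 115 and 116 CPM within the WT range of 79.4 to 133 CPM.

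Of the 24 regulators, Pparg and Foxo4 had an unadjusted edgeR p below 0.05 in the 7 mice, 0.0076 and 0.0468, beside 2.08% of all genes and with an adjusted p of 0.9996 for both. In all 9 mice their edgeR p was 0.0631 and 0.0915, and those below 0.05 were Lpin1 and Nr4a3, at 0.0410 and 0.0423, beside 2.03% of all genes. The fat-cell regulator Pparg was at 14.2 CPM in KO5, 7.02 in KO1 and 4.88 in KO3, and between 3.70 and 5.29 CPM in the WT mice, with a log2 fold change of 1.05 ± 0.32 (SE). Of 54 other lipid and fuel genes tested, Lipe, Mgll and Slc27a1 had an unadjusted edgeR p below 0.05, from 0.0131 to 0.0498, all with fold changes above 0 and an adjusted p of 0.9996, beside the same 2.08% of all genes. In all 9 mice none of these genes had an edgeR p below 0.05, the values being 0.0554 for Lipe, 0.0696 for Mgll and 0.0736 for Slc27a1. Lipe, hormone-sensitive lipase of fat cells, was at 39.1 CPM in KO5, 16.3 in KO1 and 11.0 in KO3, against 7.91 to 11.4 CPM in the WT mice. KO5 was the highest mouse for all 4 of these genes with fold changes above 0, as it was for 5 of the 6 adipocyte markers tested (Adipoq, Plin1, Cfd, Fabp4 and Car3) and for the summed Schwann cell markers, while it was the lowest for the other, Cidea, at 8.47 CPM beside 8.66 to 22.4 CPM. The part of adipocyte or nerve RNA in these values was not tested.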

How the data were processed

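RNA of 9 gastrocnemius muscles was sequenced, 1 library per mouse. The deposited values were raw counts per Ensembl gene; the authors mapped reads to mm10 with HISAT2, kept concordant pairs and counted them with featureCounts, with no normalization. The sources used here give neither the annotation release nor the strandedness and treatment of shared reads. Of 55471 genes, 16836 had no count in any mouse. CPM are counts per 1000000 after TMM scaling; log2 CPM used a prior count of 2.

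The genotypes were compared with edgeR 4.0.16 (robust quasi-likelihood test, TMM, filterByExpr with a minimum count of 10 and a minimum total of 15, R 4.3.3) in the study's 7 mice and in all 9, with Benjamini-Hochberg adjustment over all genes tested and the study's criterion, p below 0.05 with FDR below 25%. Single genes were also given an exact 2-sided permutation test, whose smallest p is 0.0286 for 3 against 4 mice. The p-values measure the spread between these mice. The fits were tested on simulated data. Alternatives were other filters and scalings, DESeq2 1.42.0, limma-voom (limma 3.58.1), a replicate block and leaving out each mouse; a Y-linked covariate and counting WT2 with the upper mice were chosen after seeing the data.

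The members and lists were chosen with earlier results of these data known. Named genes were all members, listed regulators and pathway genes that followed the division or had p below 0.05, and the 10 non-members of widest gap in each direction with a mean of at least 5 CPM; examples from the other lists were chosen after their values were seen. Exon lengths and overlaps came from GENCODE M21 (GRCm38), promoters from RefSeq (GRCm38.p6). Results for some single genes named by this rule are not reported here.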

Additional observations from a re-analysis of the deposited data

Results flagged for a closer look

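In groups of 4 or 5 mice, a highest or lowest mouse was singled out by its gap to the nearest other mouse. That gap, in log2 CPM, had to be large against the group's whole range (Dixon's criterion at the 95% level). Among 70 groups (35 members in 2 genotypes) 4 mice were singled out, and chance alone gives about 1 in 20. WT4 was low for Slc22a5, the carnitine transporter, at 8.56 CPM beside 9.77 to 9.96 CPM in the other WT mice. WT4 was also low for Etfa, at 134 CPM beside 147 to 149 CPM. KO4, the mouse with the highest cartilage markers, was low for Acads at 47.9 CPM beside 57.8 to 62.2 CPM in the other KO mice. KO5, the mouse with the highest adipocyte markers, was high for Eci1 at 56.6 CPM beside 39.6 to 41.9 CPM. All 4 genes are among the 10 members whose upper and lower mice overlapped.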

How the results depend on the processing

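No member was called under any of 20 alternatives to the fit of 7 mice or of 9 alternatives to the fit of 9 mice. The number of members with an unadjusted p below 0.05, 0 in the fit of 7 mice, was 1 with no filter on low counts (beside 972 of 37614 genes), 2 with DESeq2 (393 of 21809) and 2 with the Y-linked covariate (593 of 21809), and ran from 0 to 7 when 1 mouse was left out (1 without KO1 or KO5, and 7 without KO3, beside 794 of 22244 genes). The number with a fold change above 0, 30 of 35, ran from 18 (without KO1) to 33 when 1 mouse was left out; in the fit of 9 mice it ran from 14 (without KO1, and without WT3) to 32. With the replicate number as a block it was 18 in 7 mice and 11 in 9 mice, 1 member had an unadjusted p below 0.05 in 7 mice, and the fold change of Acsl1 was -0.074 and -0.012. Mice of the same number correlated in their deviations from the group means at 0.37, 0.05, 0.36 and 0.10 for numbers 1 to 4, not above 0.1 for number 2, and 5 of these 8 mice correlated best with the mouse of their own number in the other genotype. The labels do not say that a number marks a litter or day, so the block is given as an alternative alone. For numbers 1, 3 and 4 the division runs along the numbers in both genotypes, as numbers 1 are upper mice and numbers 3 and 4 lower mice. Of number 2, KO2 is an upper mouse and WT2 is in neither set, and KO5 has no WT mouse of its number. The cause was not tested for any of these shifts. For Acsl1, Lpl, Pdk4, Cd36 and Angptl4, no other alternative turned the direction (Angptl4 ran from 0.58 without KO1 to 1.69 without WT1; with the block in 7 and 9 mice, Angptl4 was 0.52 and 0.11, Lpl 0.08 and 0.10, and Cd36 0.07 and 0.12), and the adjusted p ran from 0.357 (Acsl1) to 1. The count of members higher in all upper mice, 24, ran from 22 to 26 over 13 alternatives, beside 5.19% to 11.5% of all genes; the count lower in them, 1, was 0 with library totals alone and ran from 1 to 2 when 1 mouse was left out. KO3 and KO4 were both below WT3 and WT4 for 19 to 21 members under other scalings. With 26444372 counts or more per library, the lowest member count in any mouse was 192 (Angptl4).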
